A study of Mus musculus with 18 samples.

Results

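The microglia and macrophage identity genes are 9 genes, P2ry12, Tmem119, Cx3cr1, Csf1r, Trem2, Tyrobp, Itgam, Cd68 and Aif1, that are widely used to recognise microglia and other macrophages. They were chosen by name, as a fixed list matched by Ensembl gene identifier, from 55416 genes measured in 18 RNA-seq libraries of mouse optic nerve head. The series set B6.EDA+/+ mice against C57BL/6J controls in tissue cut from sections by laser capture, a method that excises chosen tissue under a microscope. As background, EDA+/+ mice are engineered to keep the extra domain A exon in all fibronectin transcripts, an exon that wild-type tissue includes variably. The libraries fell into 4 groups: 3 libraries labelled B6.EDA+/+ at 22 months of age, 5 labelled C57BL/6J control at 22 months, 5 labelled B6.EDA+/+ at 12 months and 5 labelled C57BL/6J control at 12 months. All groups share the C57BL/6 background that the strain names give, and the labels name no treatment, sex, litter or processing batch. Xist, the transcript of the inactive X chromosome, exceeded Y-linked genes in 1 of 3 EDA-labelled and 0 of 5 control-labelled libraries at 22 months. It did so in 2 of 5 EDA-labelled and 2 of 5 control-labelled libraries at 12 months. The groups at 22 months therefore also differed in sex, and so did the control-labelled groups at 22 and 12 months. Nothing in the labels says that each library came from a separate animal, so the p-values below rest on a spread between libraries that may be partly technical.

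Microglia are the resident macrophages of the central nervous system, and they survive only while CSF1R, the receptor for the growth factors CSF1 and IL-34, is signalling. P2RY12, a receptor for nucleotides, steers microglial processes towards injured cells, and CX3CR1 receives fractalkine from neurons. TREM2 binds lipids and lipoproteins at the cell surface and signals through its adaptor TYROBP (DAP12), the pathway through which microglia leave the resting state in neurodegeneration. In the optic nerve head, the exit of the retinal axons from the eye, microglia lie among astrocytes and axons and are known to respond early in models of glaucoma.

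The start-site regions of 4 of these genes are shown because the 4 had their highest levels in the same pair of libraries, as described below. Each line holds 250 bases before and 50 bases after the transcription start, read on the gene's own strand from RefSeq on build GRCm38.p6. Capitals mark GAGGAA or its reverse complement TTCCTC, the core recognised by PU.1, a transcription factor of myeloid cells.
P2ry12, chr3:59262936-59263235, minus strand: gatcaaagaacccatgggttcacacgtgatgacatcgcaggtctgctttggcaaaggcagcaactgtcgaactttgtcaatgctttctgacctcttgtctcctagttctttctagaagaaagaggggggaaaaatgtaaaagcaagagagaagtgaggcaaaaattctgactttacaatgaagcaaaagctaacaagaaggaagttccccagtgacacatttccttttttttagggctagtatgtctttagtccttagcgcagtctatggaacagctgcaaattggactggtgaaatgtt
Cd68, chr11:69666121-69666420, minus strand: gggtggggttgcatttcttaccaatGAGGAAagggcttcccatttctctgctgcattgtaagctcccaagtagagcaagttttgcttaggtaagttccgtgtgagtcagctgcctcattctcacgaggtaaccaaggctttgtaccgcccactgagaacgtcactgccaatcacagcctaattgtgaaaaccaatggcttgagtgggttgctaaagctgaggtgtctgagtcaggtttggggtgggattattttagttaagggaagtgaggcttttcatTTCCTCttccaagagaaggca
Trem2, chr17:48346151-48346450, plus strand: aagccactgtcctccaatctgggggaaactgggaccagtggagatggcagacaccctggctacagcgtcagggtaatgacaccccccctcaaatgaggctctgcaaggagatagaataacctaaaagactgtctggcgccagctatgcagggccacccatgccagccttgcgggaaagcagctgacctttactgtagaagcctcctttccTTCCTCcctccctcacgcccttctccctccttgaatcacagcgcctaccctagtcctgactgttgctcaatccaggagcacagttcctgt
Itgam, chr7:128062390-128062689, plus strand: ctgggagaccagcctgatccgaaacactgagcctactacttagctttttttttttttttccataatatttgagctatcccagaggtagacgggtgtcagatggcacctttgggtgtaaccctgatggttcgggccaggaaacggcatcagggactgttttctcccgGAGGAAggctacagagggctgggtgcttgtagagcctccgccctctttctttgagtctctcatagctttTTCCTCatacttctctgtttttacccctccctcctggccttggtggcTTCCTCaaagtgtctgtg
In the Itgam window 3 matches were found, in Cd68 2, in Trem2 1 and in P2ry12 0. Of the 9 genes, 6 had an entry in the table, and 4 of these 6 held at least 1 match (Aif1 also held 1 and Cx3cr1 held 0). Over all 32851 windows of 300 bases, 28.3% held a match. A match is only a description of the letters in this window.

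Library totals ran from 13097498 to 18488733 expected counts, and 9703 to 13048 genes per library had at least 10 reads. The fewest genes were detected in EDA-labelled replicate 3 at 22 months. The 9 genes together took 0.0156% to 0.0655% of the reads of a library, and a level of 0 allows up to 3 reads, which is 0.199 to 0.225 CPM (counts scaled to a common library total), with counting error only. The fibronectin exon itself could not check the labels: isoforms with the exon made up 0% to 58.5% of the transcripts spanning it in EDA-labelled libraries and 0% to 100% in control-labelled libraries, on only 0.87 to 18.6 TPM of such transcripts. The groups are therefore named by their labels throughout. TPM (transcript abundance as a share of all transcripts in the library) are the authors' values and are scaled for transcript length, so they are used below for levels, while fold changes come from the counts.

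All 9 genes were detected in each of the 4 groups. By median TPM over the 18 libraries the order was Csf1r at 40.1, Cx3cr1 at 38.1, Tyrobp at 33.2, Itgam at 15.5, Tmem119 at 8.64, Trem2 at 7.37, Cd68 at 7.29, P2ry12 at 4.43 and Aif1 at 2.74. Of the 8 steps between neighbours in this order, only that between Tyrobp and Itgam was larger than its own spread: Tyrobp was the higher in 17 of 18 libraries, with a mean log2 ratio of TPM + 1 of 1.51 ± 0.87 (SD, n = 18). The other neighbours changed places between libraries, as Csf1r exceeded Cx3cr1 in 10 of 18. Markers of related cells were scarcer: of 14 genes of border-associated macrophages, the macrophages of vessels and meninges, 6 were at 0 in all EDA-labelled libraries at 22 months and 8 in all control-labelled ones at that age. At 12 months 6 were at 0 in the EDA-labelled libraries and 5 in the control-labelled ones. Pf4 and Folr2 were among those at 0 in every group, and the 14 genes summed to 9.20 to 46.6 TPM per library, where the 9 identity genes summed to 104 to 482 TPM. All 8 neutrophil markers, among them S100a8, S100a9 and Ly6g, were at 0 in each of the 18 libraries. Levels in bulk tissue cannot tell fewer cells from less RNA per cell, and this holds for each difference given below.

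**Figure D1:**
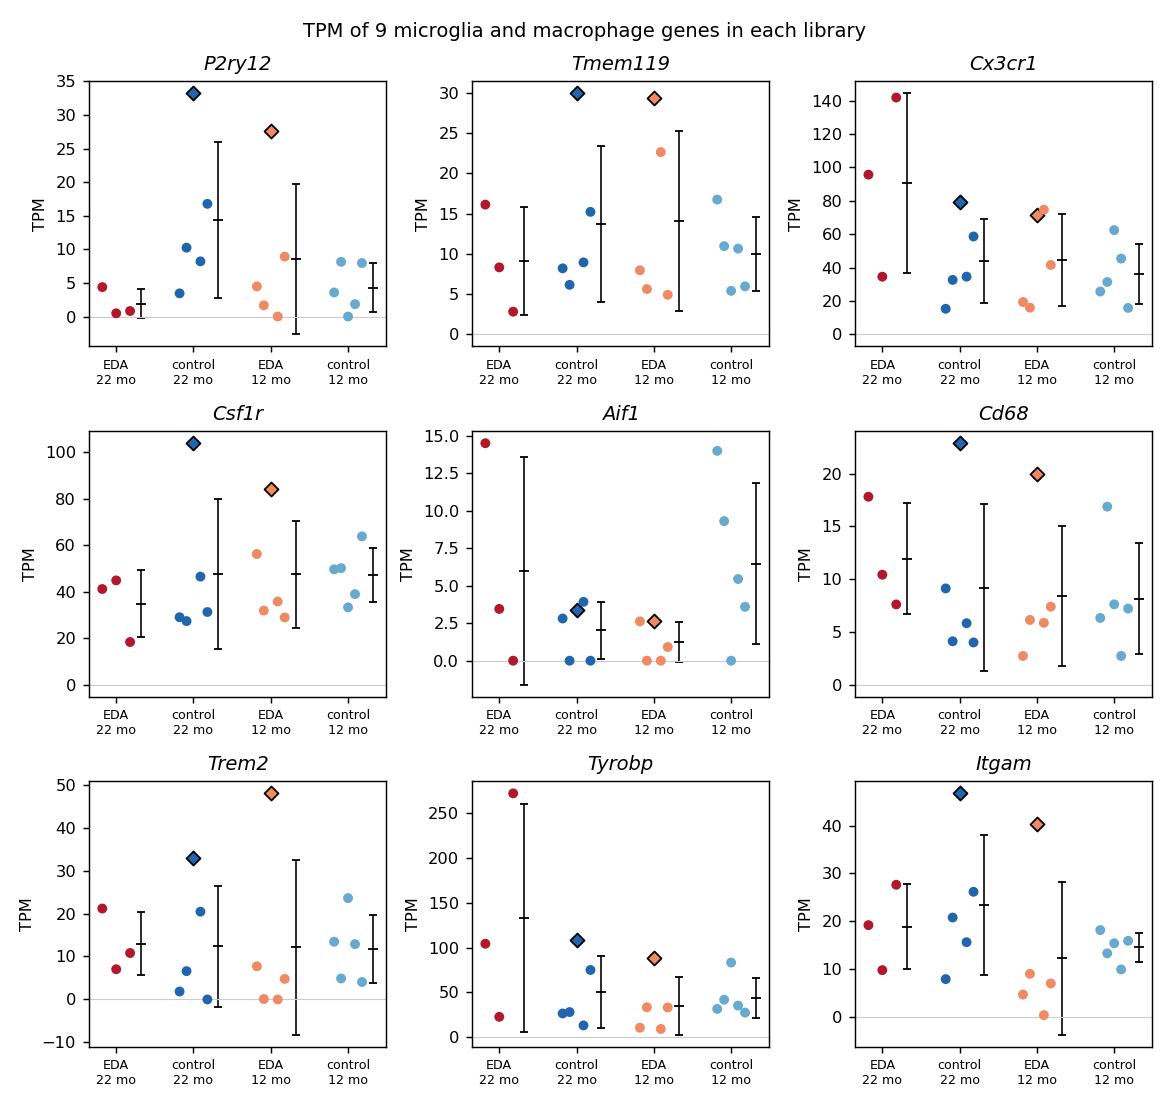
TPM of each of the 9 genes in each of the 18 libraries, with the mean and SD of each group beside the points. Diamonds mark control-labelled replicate 3 at 22 months and EDA-labelled replicate 3 at 12 months, which hold the 2 highest values of 6 of the genes.

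Csf1r, the survival receptor, was the most abundant of the 9 genes by median and had the smallest standard error of them in each comparison. At 22 months its TPM was 41.2, 44.9 and 18.3 in EDA-labelled replicates 1 to 3, against 29.01, 27.3, 104, 46.5 and 31.3 in control-labelled replicates 1 to 5. At 12 months it was 56.2, 31.9, 84.3, 35.8 and 28.9 in EDA-labelled replicates 1 to 5, against 49.6, 50.2, 33.3, 38.96 and 63.9 in control-labelled ones. The groups overlapped at both ages, and the highest values lay in replicate 3 of the older controls and replicate 3 of the younger EDA-labelled group. Its fitted log2 fold change, EDA over control, was -0.48 ± 0.43 (SE) at 22 months and -0.27 ± 0.37 at 12 months. The 95% interval at 22 months ran from -1.38 to 0.43. Without control-labelled replicate 3 the value at 22 months was -0.03, and without EDA-labelled replicate 3 that at 12 months was -0.65.

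Cx3cr1, the fractalkine receptor, had its 2 highest levels of the series in EDA-labelled tissue at 22 months. There it stood at 95.7, 34.6 and 142 TPM in replicates 1 to 3, against 15.4, 32.6, 79.5, 34.6 and 58.6 TPM in control-labelled libraries. In the younger mice it stood at 19.4, 16.0, 71.4, 74.7 and 41.6 TPM in EDA-labelled libraries, against 25.7, 31.4, 62.5, 45.4 and 15.8 TPM in control-labelled ones. EDA-labelled replicates 1 and 3 at 22 months exceeded every control-labelled library of that age, while replicate 2 lay at the control median. The log2 fold change was 1.24 ± 0.59 at 22 months (edgeR, unadjusted p = 0.0505, adjusted p = 1, above the control median in 2 of 3 libraries) and 0.09 ± 0.53 at 12 months. It rests on EDA-labelled replicate 3, the library with the fewest genes detected: without it the value at 22 months was 0.35.

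P2ry12, the nucleotide receptor of resting microglia, lay at 4.38, 0.48 and 0.82 TPM in EDA-labelled libraries at 22 months, against 3.45, 10.3, 33.3, 8.21 and 16.8 TPM in control-labelled ones. At 12 months the values were 4.48, 1.66, 27.6, 0 and 8.92 TPM in EDA-labelled libraries, against 3.58, 8.14, 0, 1.84 and 7.96 TPM in control-labelled libraries. All 3 EDA-labelled libraries at 22 months were below the control median of 10.3 TPM, and 2 of them were below every control, on 9 and 5 reads. In TPM the groups still overlapped, since EDA-labelled replicate 1 exceeded control-labelled replicate 1. In log2 CPM less the gene's mean they did not overlap. There the EDA-labelled libraries stood at 0.218, -1.513 and -1.906, and the lowest control at 0.541 (replicate 4). How many of all genes part in this way was not counted. The log2 fold change at 22 months was -2.47 ± 1.53, with a 95% interval from -5.66 to 0.72, and it did not pass the test (unadjusted p = 0.122, adjusted p = 1, edgeR). At 12 months it was 0.91 ± 1.19, and -0.04 without EDA-labelled replicate 3.

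Tmem119, a membrane protein used to tell microglia from other macrophages in mouse brain, had 16.1, 8.33 and 2.83 TPM in EDA-labelled libraries at 22 months, against 8.21, 6.16, 30.0, 8.95 and 15.2 TPM in control-labelled ones. In 12-month tissue Tmem119 had 7.97, 5.64, 29.4, 22.7 and 4.92 TPM in EDA-labelled libraries, against 16.8, 10.97, 5.41, 10.7 and 5.97 TPM in control-labelled ones. The groups overlapped throughout, with the same pair of libraries highest as for P2ry12. Its log2 fold change was -0.97 ± 0.69 at 22 months and 0.30 ± 0.57 at 12 months, where leaving out EDA-labelled replicate 3 gave -0.15. At 22 months it was -1.66 without EDA-labelled replicate 1 and -0.61 without control-labelled replicate 3.

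Tyrobp, the signalling adaptor, showed the widest range of the 9 genes in TPM. Its levels were 104, 22.6 and 272 TPM in EDA-labelled libraries at 22 months, against 26.4, 27.9, 109, 12.99 and 75.0 TPM in control-labelled libraries. At 12 months they were 10.4, 33.3, 88.6, 9.06 and 33.1 TPM in EDA-labelled libraries, against 31.5, 41.8, 83.3, 35.2 and 27.3 TPM in control-labelled libraries. EDA-labelled replicate 3 at 22 months stood above every other library, and replicate 2 of that group stood below its control median. The log2 fold change at 22 months was 1.83 ± 0.83, with a 95% interval from 0.10 to 3.55 (edgeR quasi-likelihood test, unadjusted p = 0.0396, adjusted p = 1, above the control median in 2 of 3 libraries). Without EDA-labelled replicate 3 the value at 22 months was 0.10. At 12 months it was -0.54 ± 0.74, which became -1.25 without EDA-labelled replicate 3 and -0.16 without control-labelled replicate 3 of that age.

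Trem2, whose product signals through TYROBP, overlapped between the labels at both ages. In EDA-labelled libraries at 22 months it had 21.2, 7.03 and 10.8 TPM, against 1.85, 6.59, 32.97, 20.4 and 0 TPM in control-labelled ones. In EDA-labelled libraries at 12 months it had 7.71, 0.10, 48.0, 0 and 4.79 TPM, against 13.4, 4.88, 23.6, 12.9 and 4.06 TPM in control-labelled ones. In TPM all 3 EDA-labelled libraries at 22 months were above the control median of 6.59 and none was above the highest control. Neither held in log2 CPM relative to the average of Trem2. There EDA-labelled replicate 2 stood at 0.325, below the control median of 0.753 (replicate 2). EDA-labelled replicate 1 stood at 2.195, above the highest control at 2.038 (replicate 3). The log2 fold change was 0.66 ± 1.44 at 22 months and -0.27 ± 1.26 at 12 months. Single libraries set both values: without EDA-labelled replicate 1 the first was 0.08, and without EDA-labelled replicate 3 the second was -2.21. Trem2, like P2ry12, reached 0 in 2 of 18 libraries.

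Itgam, the integrin alpha subunit CD11b of the complement receptor CR3, had 19.2, 9.83 and 27.7 TPM in EDA-labelled libraries at 22 months, against 7.95, 20.8, 46.7, 15.7 and 26.2 TPM in control-labelled ones. Among the younger libraries it had 4.73, 9.05, 40.3, 0.43 and 7.05 TPM in EDA-labelled ones, against 18.2, 13.3, 15.4, 9.97 and 15.9 TPM in control-labelled libraries. In 4 of the 5 EDA-labelled libraries at 12 months Itgam lay below every control of that age, while replicate 3 lay above them all. The log2 fold change at 12 months was -0.45 ± 0.76, and -1.67 without that replicate. At 22 months it was -0.16 ± 0.88, which became 0.18 without control-labelled replicate 3 and -0.86 without EDA-labelled replicate 3.

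Cd68, a glycoprotein of late endosomes and lysosomes in phagocytes, had 17.8, 10.4 and 7.59 TPM in EDA-labelled libraries at 22 months, against 9.11, 4.10, 22.9, 5.81 and 3.99 TPM in control-labelled ones. For the 12-month libraries Cd68 was 2.71, 6.12, 19.9, 5.85 and 7.38 TPM where EDA-labelled, against 6.31, 16.9, 7.60, 2.71 and 7.20 TPM in control-labelled ones. Its 3 EDA-labelled libraries at 22 months were all above the control median of 5.81 TPM, and below the highest control. The log2 fold change was 0.34 ± 0.77 at 22 months (0.86 without control-labelled replicate 3, 0.06 without EDA-labelled replicate 1) and -0.22 ± 0.67 at 12 months. The value at 12 months was -0.85 without EDA-labelled replicate 3 and 0.27 without control-labelled replicate 2.

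Aif1, the actin-bundling protein IBA1 that is the usual antibody target for staining microglia, was the scarcest. It had 14.5, 3.45 and 0 TPM in EDA-labelled libraries at 22 months, against 2.81, 0, 3.39, 3.92 and 0 TPM in control-labelled ones. At 12 months it had 2.62, 0, 2.67, 0 and 0.91 TPM in EDA-labelled libraries, against 14.0, 9.30, 0, 5.44 and 3.59 TPM in control-labelled ones. All 5 EDA-labelled libraries at 12 months were below the control median of 5.44 TPM, with a log2 fold change of -2.71 ± 1.69 and a 95% interval from -6.23 to 0.82 (edgeR, unadjusted p = 0.125, adjusted p = 1). A control-labelled library was also at 0, so the groups overlapped. At 22 months the value was 1.61 ± 1.79, and -0.62 without EDA-labelled replicate 1.

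None of the 9 genes passed an adjusted p of 0.05 between EDA-labelled and control-labelled tissue at either age, and neither did any of the 15118 genes tested (0% called at both ages; edgeR quasi-likelihood test, Benjamini-Hochberg adjustment over all genes). At 22 months 599 genes, or 3.96%, had an unadjusted p under 0.05, and 1 of the 9 was among them, Tyrobp. At 12 months 689 genes, or 4.56%, did so, and 0 of the 9. DESeq2 called 34 genes at 22 months and 22 at 12 months, with 0 of the 9 at either age. By direction alone, 5 of the 9 had values above 0 at 22 months, where 46% of all genes did, and 3 of the 9 at 12 months, where 49.5% did. The median log2 fold change of the 9 genes was 0.34 at 22 months, beside -0.07 for all genes, and -0.27 at 12 months, beside -0.01 for all genes. Without EDA-labelled replicate 3 at 22 months and replicate 4 at 12 months, a choice made after the data were seen, these counts were again 5 and 3 of 9, where 46.2% and 50% of all genes had values above 0. The medians of the 9 were then 0.08 and -0.11, and 0 of the 9 had an unadjusted p under 0.05 at either age, where 2.71% of all genes did at 22 months and 5.21% at 12 months.

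**Figure D2:**
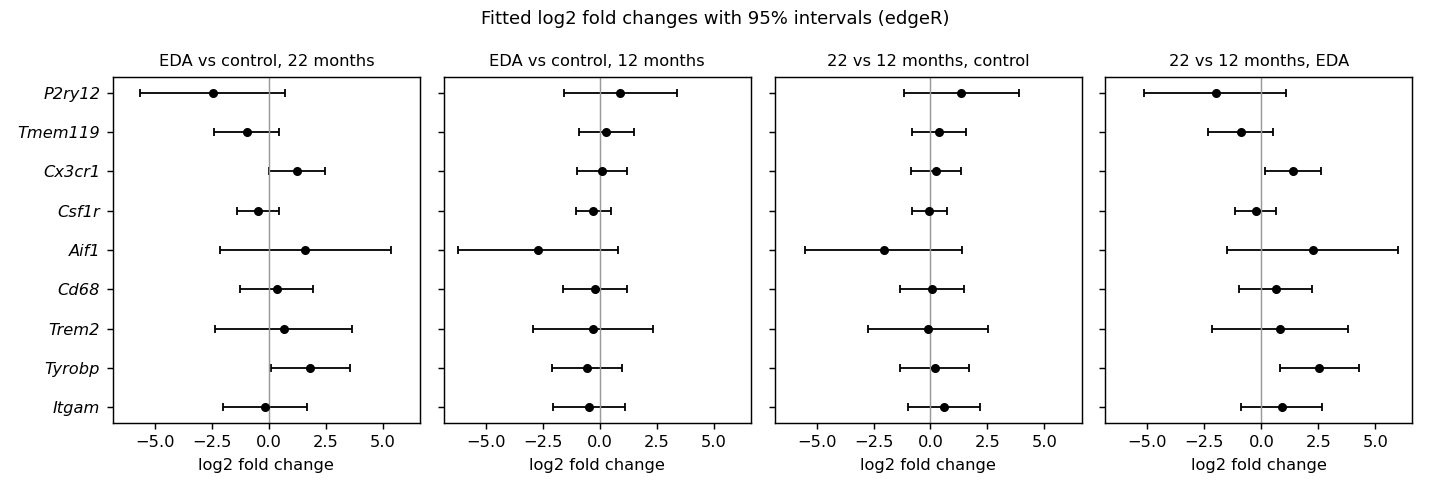
Log2 fold changes of the 9 genes in 4 comparisons, with points for the fitted value and bars for the 95% interval of the edgeR model. Only Tyrobp at 22 months (EDA over control) and Tyrobp and Cx3cr1 in EDA-labelled tissue (22 over 12 months) have intervals that exclude 0, before any adjustment for the number of genes.

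Age was compared within each label. In EDA-labelled tissue, the log2 fold change of 22 over 12 months was 2.54 ± 0.84 for Tyrobp and 1.39 ± 0.59 for Cx3cr1, with unadjusted p of 0.00644 and 0.0294 and an adjusted p of 0.961 for both (edgeR). Both genes exceeded every 12-month library in 2 of the 3 libraries at 22 months. Without EDA-labelled replicate 3 at 22 months the values were 0.82 for Tyrobp and 0.50 for Cx3cr1. The other 7 genes lay between -2.01 ± 1.49 for P2ry12 and 2.26 ± 1.80 for Aif1, with unadjusted p of 0.193 and 0.225. Aif1 was at 0.03 without EDA-labelled replicate 1 at 22 months. P2ry12 was at -3.11 without that library and at -1.07 without EDA-labelled replicate 3 at 12 months. Of all genes 0% were called and 4.98% had an unadjusted p under 0.05, as had 2 of the 9. In direction 6 of the 9 had values above 0, where 46.9% of all genes did.

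In control-labelled tissue no gene of the 9 passed the test with age. Their log2 fold changes, 22 over 12 months, lay between -2.06 ± 1.65 for Aif1 and 1.36 ± 1.21 for P2ry12, and 0 of the 9 had an unadjusted p under 0.05, where 3.51% of all genes did and 0% were called. In direction 6 of the 9 had values above 0, where 51.6% of all genes did. In TPM P2ry12 exceeded every 12-month control in 4 of the 5 controls at 22 months. In log2 CPM less the gene's mean, 12-month replicate 2 stood at 1.577, above older replicates 1, 2 and 4 (0.894, 1.068 and 0.541). The log2 fold change of P2ry12 was 0.82 without replicate 3 of the older controls. Csf1r was at -0.05 ± 0.37. The intervals of Csf1r (-0.82 to 0.72) were the narrowest of the 9, and those of Trem2 (-2.73 to 2.53) left room for large differences in either direction.

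The difference of the EDA effect between the ages was tested directly as an interaction. Tyrobp had an interaction of 2.37 ± 1.11 log2 units (unadjusted p = 0.0460, adjusted p = 1.00, edgeR), which was 0.64 without EDA-labelled replicate 3 at 22 months. For Aif1 it was 4.32 ± 2.44 and for P2ry12 -3.38 ± 1.92, in opposite directions. The Aif1 value was 2.09 without EDA-labelled replicate 1 at 22 months, and the P2ry12 value was -1.89 without the 2 libraries rich in myelin that are described next. Of all genes 0% were called and 4.02% had an unadjusted p under 0.05, as had 1 of the 9.

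The highest levels of most of these genes followed a pair of libraries with different labels and ages. Control-labelled replicate 3 at 22 months and EDA-labelled replicate 3 at 12 months held the 2 highest TPM values of 6 genes: P2ry12, Tmem119, Csf1r, Cd68, Trem2 and Itgam. The count was also 6 with TPM rescaled without mitochondrial genes and the most abundant unnamed gene, and it was 4 with TMM-scaled CPM. The same 2 libraries had by far the most myelin transcripts: 10 genes of oligodendrocytes and myelin summed to 23459 TPM in the older control and 22976 TPM in the younger EDA-labelled library, and to at most 6509 TPM elsewhere. They also led the 25 pan-myeloid genes, at 2362 and 2192 TPM, with 1770 TPM next, but not every list. The 9 genes summed highest in EDA-labelled replicate 3 at 22 months, at 482 TPM, with the pair next at 461 and 412 TPM. Other homeostatic microglia genes summed highest in EDA-labelled replicate 1 at 22 months, at 15407 TPM, of which Sparc held 14013 TPM. Genes of disease-associated microglia, described below, summed highest in EDA-labelled replicate 4 at 12 months, at 4725 TPM. Of this sum Axl held 1280, Spp1 1031, B2m 977 and Timp2 913 TPM, and Trem2 was at 0 in that library. The part of myelin content in the levels of the 9 genes was not tested. As an alternative chosen after the data were seen, the model was fitted without these 2 libraries. Since the pair holds the highest values of most of these genes, leaving it out moves EDA over control down at 12 months and up at 22 months by construction, so its values are a description only. The log2 fold changes of the 9 genes (EDA over control) then lay between -1.93 for P2ry12 and 2.18 for Tyrobp at 22 months, with a median of 0.86. At 12 months they lay between -3.39 for Aif1 and -0.04 for P2ry12, with a median of -0.85, and no gene of the 9 passed the adjusted threshold at either age. The values of the myelin genes changed sign too: without the pair 8 of 10 were above 0 at 22 months and 7 of 10 below 0 at 12 months (EDA over control), where with all libraries 10 of 10 were below 0 and 10 of 10 above 0.

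**Figure D3:**
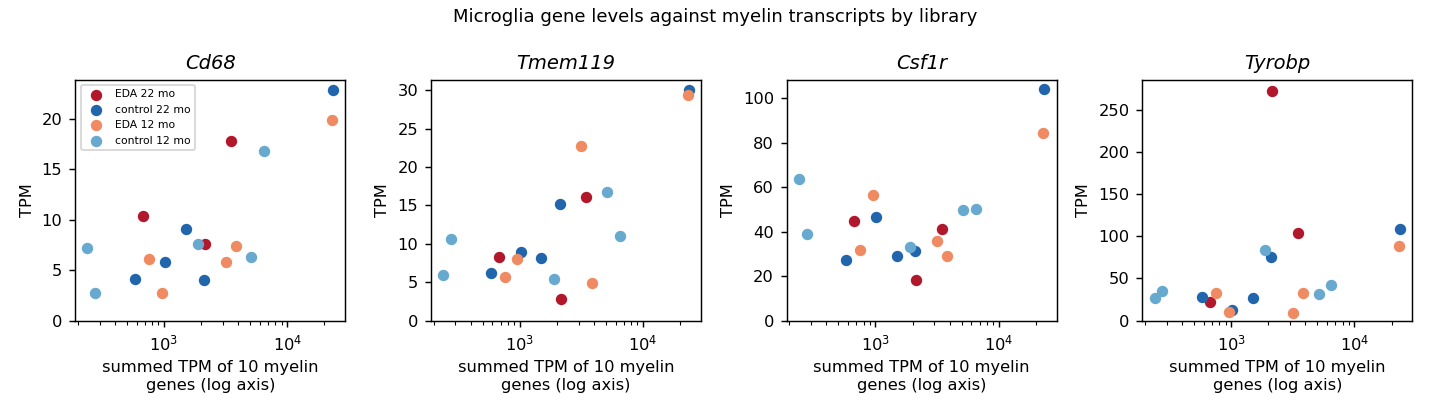
TPM of Cd68, Tmem119, Csf1r and Tyrobp in each library (vertical) against the summed TPM of 10 myelin genes (horizontal, log axis), coloured by group. The libraries with 23459 and 22976 TPM of myelin transcripts hold the highest Cd68, Tmem119 and Csf1r, and the highest Tyrobp, 272 TPM, lies in a library with 2141 TPM of them.

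Myelin transcripts were compared with each of the 9 genes over the 18 libraries, as the mean log2 CPM of the 10 myelin genes. Cd68 gave Pearson's r = 0.688 (permutation test, p = 0.00157, 0.0141 adjusted over the 9 relations) and Spearman's rho = 0.552 (permutation p = 0.0190, adjusted 0.0857). Without the 2 libraries farthest from the median in myelin, r for Cd68 was 0.509, and within groups, on values less their group means, it was 0.805. Tmem119 gave r = 0.640 (permutation p = 0.00436, adjusted 0.0196) and rho = 0.587 (permutation p = 0.0120, adjusted 0.0857), with r = 0.396 without those 2 libraries and 0.672 within groups. For Csf1r r was 0.514 (permutation p = 0.0285, adjusted 0.0855), and it was -0.02 without them, so that relation rests on those 2 libraries. No gene passed 0.05 by both coefficients after adjustment.

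Among themselves the 9 genes formed 36 pairs, of which 31 had a Pearson's r above 0, with a median of 0.32. The 2 farthest libraries left out below are those farthest from the median of the first-named gene of a pair only. Cx3cr1 and Tyrobp had the highest r, at 0.704 (permutation test, p = 0.00098, adjusted over the 36 pairs 0.0353), with Spearman's rho 0.626 (permutation p = 0.00639, adjusted 0.0767), 0.580 without the 2 farthest libraries and 0.651 within groups. Tyrobp and Itgam had the highest rho, at 0.847 (permutation p = 3e-05, adjusted 0.00108), with r = 0.681 (permutation p = 0.00385, adjusted 0.0693), 0.724 without the 2 farthest libraries and 0.656 within groups. Trem2 and its adaptor Tyrobp gave r = 0.367 (permutation p = 0.136, adjusted 0.317) and rho = 0.533 (permutation p = 0.0245, adjusted 0.147), with r = 0.427 without the 2 farthest libraries. P2ry12 and Cx3cr1, both receptors of resting microglia, gave r = -0.188 (permutation p = 0.456, adjusted 0.587) and rho = -0.03 (permutation p = 0.913, adjusted 0.955). All points share libraries, and at these read numbers a weak correlation is no finding.

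**Figure D4:**
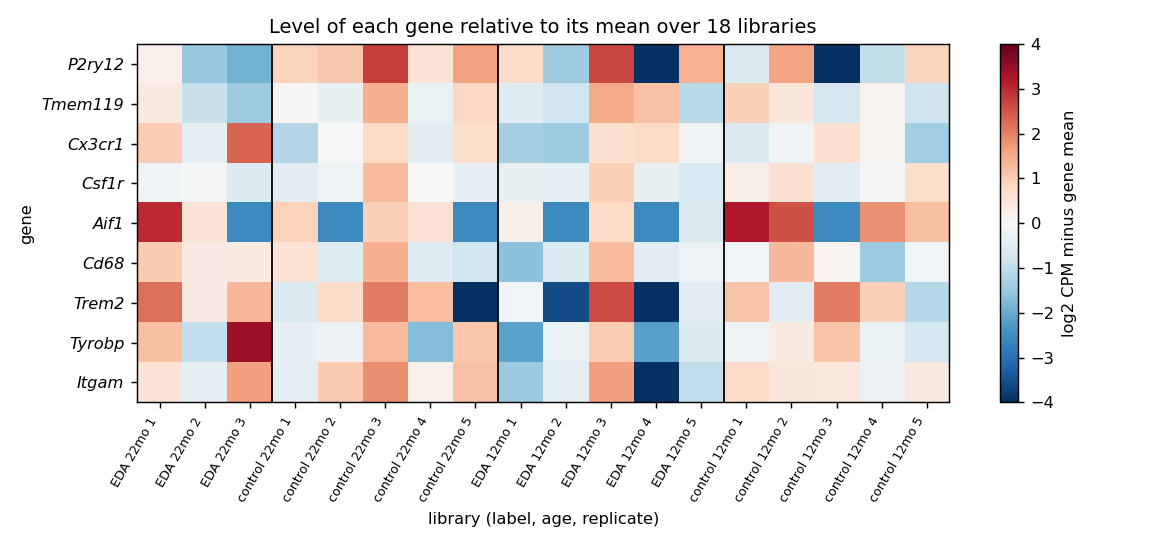
Level of each gene (rows) in each library (columns) as log2 CPM with the mean of that gene over the 18 libraries subtracted, with the colour scale cut off at -4 and 4. Vertical lines part the 4 groups. Most genes are high in control 22mo 3 and EDA 12mo 3, while EDA 12mo 4 is low in P2ry12, Trem2 and Itgam and not in Cx3cr1 or Tmem119.

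EDA-labelled replicate 4 at 12 months held some of the 9 genes high and others at 0. It had 0 reads of P2ry12, Trem2 and Aif1 and 4 reads of Itgam, yet its Cx3cr1 (74.7 TPM) was the highest and its Tmem119 (22.7 TPM) the second highest of its group. C1qa, a subunit of complement C1q made by microglia, had its highest level of the series in the same library, at 513 TPM, an observation made after the values were seen. Astrocyte genes parted there as well: Gfap, the filament protein of astrocytes, had its highest level of the series at 17692 TPM, while S100b at 2.39 TPM, Aldoc at 16.7 TPM and Aqp4 at 22.4 TPM had their lowest. Their part in these values was not tested.

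By Spearman's rho with the mean of the 9 genes over the 18 libraries, the most alike of 7575 other genes were Srek1ip1 and Fbxo32 at 0.80, Nup85 at 0.78, Atp1b3 at 0.77, Pkp4 and Scg3 at 0.76, and Thnsl1 and Tspan5 at 0.75. None of these 8 belongs to a list of myeloid or other cell-type genes used here. As a description, the median rho was 0.40 over 9 other homeostatic microglia genes, 0.29 over 14 pan-myeloid genes and 0.50 over 8 myelin genes, with Mog, a myelin surface protein, at 0.72, beside a median of 0 over all genes compared.

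The other genes of these pathways did not pass the test between the labels either. For the ligands, 6 of 6 genes were tested and 0 were called in either direction at each age. Il34, a ligand of CSF1R, had a log2 fold change (EDA over control) of -0.39 ± 0.58 at 22 months and 0.91 ± 0.50 at 12 months. Cx3cl1, fractalkine itself, was at 0.64 ± 0.46 at 22 months and 0.41 ± 0.41 at 12 months. Of 13 genes downstream of TYROBP 11 were tested, 0 were called, and 9 of the 11 had a value below 0 at 22 months, where 53.8% of all genes did. Their median log2 fold change at 22 months was -1.36 beside -0.07 for all genes, with Tyrobp itself at 1.83. Without the 2 libraries rich in myelin it was -0.33, and 5 of the 10 genes then tested were below 0. Syk, the kinase that TYROBP recruits, was at -1.71 ± 1.36 at 22 months, on levels of 0 to 3.56 TPM over all libraries. At 12 months the list went the other way: 8 of the 11 genes were above 0, where 49.5% of all genes were. The median of the list at 12 months was 0.37, beside -0.01 for all genes.

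For homeostatic microglia 17 of 18 other genes were tested and 0 were called, with medians of 0.04 at 22 months and 0.11 at 12 months (EDA over control). For disease-associated microglia, the programme that microglia enter through TREM2 and TYROBP, all 23 genes were tested and 0 were called. Their median log2 fold change was -0.30 at 22 months and 0.09 at 12 months. The first was 0.16 without EDA-labelled replicate 3 at 22 months and replicate 4 at 12 months, and 0.06 without the 2 libraries rich in myelin. Lpl, lipoprotein lipase, and Cst7, cystatin F, were at 0 in all EDA-labelled libraries at 22 months. In control-labelled libraries of that age Cst7 was at 6.51 TPM in replicate 3, rich in myelin, and at 0 in the other 4, and Lpl was at 4.96 TPM in replicate 3 and at 0 to 1.04 TPM in the other 4. The medians of these lists were the same with each gene at 0 in a group set to the bound that 3 reads over the group allow. At 22 months Spp1, osteopontin, was at 1.41 ± 0.54 and Axl, a receptor for dying cells, at 0.83 ± 0.36, with unadjusted p of 0.0159 and 0.0326 and adjusted p of 1 (edgeR). Spp1 lay above the control median in 2 of 3 EDA-labelled libraries, and Axl in 3 of 3. Both are also made by cells other than microglia. With all libraries the 10 myelin genes had a median log2 fold change of -1.50 at 22 months and 1.08 at 12 months, none passing the test, beside these lists.

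How RSEM divided the reads among isoforms bears on the levels. For Trem2 a non-coding processed transcript of 526 bases took a median of 82.5% of the gene's TPM, and for P2ry12 a coding isoform of 619 bases took 82.9%, where the other P2ry12 isoforms have 2101 to 2344 bases. Short isoforms raise the TPM of a gene for the same number of reads, so the levels of these genes are less certain than their counts. For Csf1r, Cx3cr1 and Cd68 a single isoform took a median of 95.4%, 96.6% and 97.4% of the TPM, and in the library where its share was lowest it took 63.8%, 89.8% and 14.9%. The library kit keeps no strand, so reads of P2ry12 cannot be told apart from those of Med12l, an overlapping gene on the opposite strand, where their exons overlap. The same holds for Csf1r with Hmgxb3 and for Cx3cr1 with the antisense gene Gm33858. Itgam shares exon bases with Gm49368, a gene on its own strand, and how RSEM divided the reads between them was not tested.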

How the data were processed

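RNA from laser-captured mouse optic nerve head was turned into unstranded libraries with the SMART-Seq v4 and Nextera XT kits, aligned with STAR and quantified with RSEM, all per the labels' protocols. The submitters' processing notes name GRCm39 as the build. The sources used here give neither tool versions nor an annotation. Expected counts per gene, which the authors' RSEM run estimated, were rounded here before testing (3.59% were not whole). TPM values, which the authors' RSEM run scaled for transcript length and library total, were used as deposited for levels and, from the isoform tables, for isoform shares. RSEM divides reads shared by genes or isoforms by estimated likelihood.

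Identifiers were matched to symbols through GENCODE M21 on GRCm38 (52083 of 55416). The same annotation gave the isoform types, the exon overlaps between genes and the fibronectin exon, though the submitters' notes name GRCm39. Groups come from the sample titles, and replicates are numbered in accession order. All pairs of libraries within a group differed beyond sampling noise (lowest chi-square per degree of freedom 39.1). Counts were filtered with filterByExpr, which kept 15118 genes and all 9 of the list, and scaled by TMM. They were fitted in edgeR 4.0.16 (R 4.3.3) with 4 group means and robust quasi-likelihood dispersions. The 5 contrasts were tested two-sided, with Benjamini-Hochberg adjustment over all genes and a threshold of 0.05. Correlations used log2 CPM with a prior count of 2 and two-sided permutation tests with 100000 permutations. Fold changes are EDA over control, or 22 over 12 months. Alternatives were DESeq2 1.42.0, its size factors in edgeR, limma 3.58.1 with quality weights, other filters, fits of 2 groups, covariates and left-out libraries. The fit was tested on simulated data.

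All 9 genes are named in every comparison. From each other gene list up to 3 genes with the smallest unadjusted p in a comparison could be named with their values. Exceptions, chosen after their values were seen, include C1qa, Gfap, S100b, Aldoc, Aqp4, B2m and Timp2 in a single library. They also include Cx3cl1, Cst7 and Maf where they rank lower, and C1qc, named beside the other C1q subunits. The 8 genes most alike were ranked by Spearman's rho. The genes and lists were chosen with earlier results of these data known.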

Additional observations from a re-analysis of the deposited data

Results flagged for a closer look

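Groups of 5 libraries were searched for a library far from the rest: its gap to the nearest other library had to exceed 0.71 of the group's whole range. Of 27 groups examined (9 genes in 3 groups), 6 held such a library. The cut-off flags about 1 in 20 groups of independent, normally distributed values. TPM cannot fall below 0 and the 9 genes share libraries, so that rate cannot be set against the 6. In control-labelled tissue at 22 months, replicate 3 stood apart in Csf1r, the CSF1 receptor, at 104 TPM (103.99), and in Cd68, a lysosomal protein of phagocytes, at 22.9 TPM. In EDA-labelled tissue at 12 months, replicate 3 stood apart in Cd68 at 19.9 TPM, in Trem2 at 48.0 TPM and in Itgam at 40.3 TPM. These are the 2 libraries rich in myelin transcripts, so 5 of the 6 results come from them. In control-labelled tissue at 12 months, replicate 3 stood apart in Tyrobp at 83.3 TPM, where the other 4 libraries lay between 27.3 and 41.8 TPM, and its myelin genes summed to 1893 TPM.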

How the results depend on the processing

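Depth limits the scarce genes: P2ry12 and Trem2 were at 0 reads in 2 of 18 libraries each and Aif1 in 6, while Csf1r had 804 to 3953 reads in every library. Of 922 alternative values for 45 fold changes, 868 kept their direction and their side of the threshold, 54 reversed and 0 passed the threshold. The lowest adjusted p of any of the 9 genes was 0.272 (DESeq2, EDA-labelled tissue, 22 over 12 months). No paired analysis was possible because the labels give no replicate numbers that groups share. The causes of the changes below were not tested, beyond the fewer libraries or genes used. Genes called, 0 in edgeR, numbered 34 (EDA over control, 22 months), 22 (12 months), 23 (controls by age), 41 (EDA-labelled by age) and 32 (interaction) with DESeq2. With limma they numbered 1 (22 months), 2 (12 months) and 1 (interaction). At 12 months 1 gene was called under the filter that required mean log2 CPM of 2 or more, and 1 without EDA-labelled replicate 4 at 12 months and replicate 3 at 22 months. Leaving out single libraries gave 0 to 1 there, the 1 being without EDA-labelled replicate 4. Reversed log2 fold changes follow. With limma: at 12 months (EDA over control) Tmem119 -0.33 and Cx3cr1 -0.44, in controls by age Trem2 0.23 and Tyrobp -0.32, interaction Csf1r 0.10. With the share of the most abundant unnamed gene as covariate: at 22 months Trem2 -0.11, at 12 months Tmem119 -0.07, Cx3cr1 -0.61 and Cd68 0.07, in controls by age Trem2 0.24. With Xist against Y-linked genes as covariate: at 22 months Itgam 0.11, in controls by age Tyrobp -0.20. Without EDA-labelled replicate 4 at 12 months and replicate 3 at 22 months, chosen after seeing the data: at 12 months Cx3cr1 -0.19 and Trem2 0.08, in EDA-labelled tissue by age Itgam -0.16, interaction Itgam -0.77. Without the 2 libraries rich in myelin, chosen after seeing the data: at 22 months Itgam 0.18, at 12 months P2ry12 -0.04, Tmem119 -0.16 and Cx3cr1 -0.14, in controls by age Cd68 -0.44 and Tyrobp -0.17, in EDA-labelled tissue by age Csf1r 0.12, interaction Csf1r 0.62. Leaving out 1 library at a time gave these ranges where a direction reversed: at 22 months Aif1 -0.62 to 2.19 and Itgam -0.86 to 0.20; at 12 months P2ry12 -0.04 to 1.59, Tmem119 -0.15 to 0.59, Cx3cr1 -0.20 to 0.43, Cd68 -0.85 to 0.27 and Trem2 -2.21 to 0.27. In controls by age the ranges were Csf1r -0.50 to 0.08, Cd68 -0.44 to 0.57, Trem2 -0.69 to 0.44 and Tyrobp -0.17 to 0.55. In EDA-labelled tissue by age Csf1r ranged from -0.37 to 0.12, and as interactions Csf1r ranged from -0.34 to 0.24 and Itgam from -0.41 to 1.52.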

Other observations

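Genes that control macrophage identity were also measured. Of 12 myeloid transcription factors 11 were tested and 0 were called in any comparison (edgeR). Runx1, a factor of blood and microglial development, had 28.9, 33.2, 34.9, 44.9 and 17.6 TPM in EDA-labelled libraries at 12 months, against 6.45, 8.49, 18.1, 9.22 and 10.3 TPM in control-labelled ones. Only EDA-labelled replicate 5 lay below a control, replicate 3, and the log2 fold change of Runx1 was 1.32 ± 0.37 (SE), with an unadjusted p of 0.00204 and an adjusted p of 1 (edgeR). At 22 months, EDA-labelled libraries had 23.1, 17.4 and 8.09 TPM, against 10.7, 22.1, 13.5, 17.9 and 12.8 TPM in control-labelled libraries. The interaction of Runx1 was -1.51 ± 0.57, with an unadjusted p of 0.0158 and an adjusted p of 1.00.

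C1qa, which codes for a subunit of complement C1q, had a log2 fold change of 1.44 ± 0.55 (EDA over control) at 12 months, with C1qb at 1.35 ± 0.62 and C1qc at -0.01 ± 0.82, the other subunits, and adjusted p of 1 for all 3 (edgeR). C1qa had 81.3, 85.2, 350, 513 and 87.0 TPM in EDA-labelled libraries, against 48.8, 102, 60.6, 66.0 and 80.3 TPM in control-labelled libraries of that age. Its 2 high values lie in the library richest in myelin transcripts of that group and in the library with no reads of P2ry12, Trem2 or Aif1. Of 14 genes of border-associated macrophages 7 were tested at 22 months, where 7 had values above 0 (46% of all genes did) and 0 were called (edgeR). At 12 months 2 of the 7 had values above 0 (49.5% of all genes did), with a median log2 fold change of -0.33, and 0 were called. Maf, a transcription factor that microglia also express, had 6.09 to 28.5 TPM over the 18 libraries. F13a1, a coagulation factor subunit, was at 4.02 TPM in EDA-labelled replicate 1 at 22 months and at 0 in every other library of that age.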
